A study of Oryza sativa Japonica Group with 4 samples.

Results

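Anthers of fertile rice plants were compared between 2 stages of male development. The fertile plants, *SSTL-F*, and the sterile plants, *sstl-s*, segregated in the semi-sterile *sstl* line of the cultivar Tainung 67, which came from a T-DNA insertion line whose sterility did not follow the T-DNA. The young microspore stage (YM) is the stage at which microspores have left the tetrads, and at the late pollen mitosis stage (LpM) the second mitosis divides the generative cell. The comparison set the *SSTL-F* LpM library against the *SSTL-F* YM library, with 1 library for each, so no difference has a replicate check and no p-value is given. The labels do not say how many plants went into a library. All genes with at least 10 counts in either library were taken, which kept 23577 of the 35825 genes in the deposited tables. At this edge, 284 kept genes had 10 counts in their higher library, and 315 genes with 9 were left out. The *sstl-s* YM and LpM libraries, also 1 each, are used only to show where the stage change of fertile anthers differed.

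The anther holds the male germ line inside layers of supporting cells, and the innermost layer, the tapetum, feeds the microspores. Tapetal cells make lipid precursors of sporopollenin, the polymer of the outer pollen wall (exine), export them through ABC transporters and pass them on with lipid transfer proteins and orbicules. In rice the bHLH factors bHLH142, TDR and EAT1 act in that order on tapetal programmed cell death, with the aspartic proteases AP25 and AP37 as targets of EAT1. As the tapetum breaks down, pollen passes through its mitoses, takes up sugar and stores starch.

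The *SSTL-F* YM library held 10161675 counts and the *SSTL-F* LpM library 11523243, and the *sstl-s* libraries 11559430 at YM and 11076871 at LpM. The smallest level this depth can show, taken as 3 counts, was 0.295 CPM (counts scaled to a common library total) at YM and 0.260 CPM at LpM in *SSTL-F*. The 10 most abundant genes took 2.97% of the counts at YM and 3.93% at LpM. The log2 fold-change is LpM over YM, computed on total counts with a prior count of 1. A gene is said to have risen or fallen only when that estimate was at least 2-fold. The interval after a value is the exact 95% counting interval (Clopper-Pearson), which covers counting error only.

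The stage labels were checked against markers of the cell types an anther can hold. The 13 tapetum markers summed to 12996 CPM at YM and 18796 CPM at LpM in *SSTL-F*, and none of them was at 3 counts or fewer in either library. They did not move together. *TDR*, *bHLH142*, *CYP703A3*, *NP1* and *ABCG26* were lower at LpM, *UDT1* had 42 counts in both libraries, and *OsC6* alone went from 9.05 to 2266 CPM. These markers are also members of the regulator and sporopollenin lists below. In sections at LpM, the authors found the *SSTL-F* tapetum degenerated and gone. The late pollen markers chosen were almost absent. Of 10 such markers, the transcription factor genes *MADS62*, *MADS63* and *MADS68*, the monosaccharide transporter gene *MST8* and 5 beta-expansins of pollen (1A, 1B, 9, 10 and 13) had no more than 3 counts in any library, and together they had 2 counts at YM and 7 counts at LpM in *SSTL-F*. The exception was the sucrose transporter gene *SUT1*, with 282 and 365 counts. The markers chosen did not show the late pollen that the LpM label names. Profilins, polcalcins, pollen pectate lyases and polygalacturonases, planned as markers, were not in the set. Neither were Os09g0381400 and Os09g0388400, which the authors describe as preferred in late pollen. The libraries are called YM and LpM here because they are labelled so. The 7 meiocyte markers summed to 299 CPM at YM and 128 CPM at LpM. The 29 genes found by the words for chlorophyll-binding, photosystem and Rubisco proteins, a CONSTANS-like regulator among them, were used as markers of green tissue and summed to 544 and 1292 CPM. What part these shifts in marker level had in the other results was not tested. In whole anthers, fewer cells of a type and less RNA per cell cannot be told apart.

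**Figure D1:**
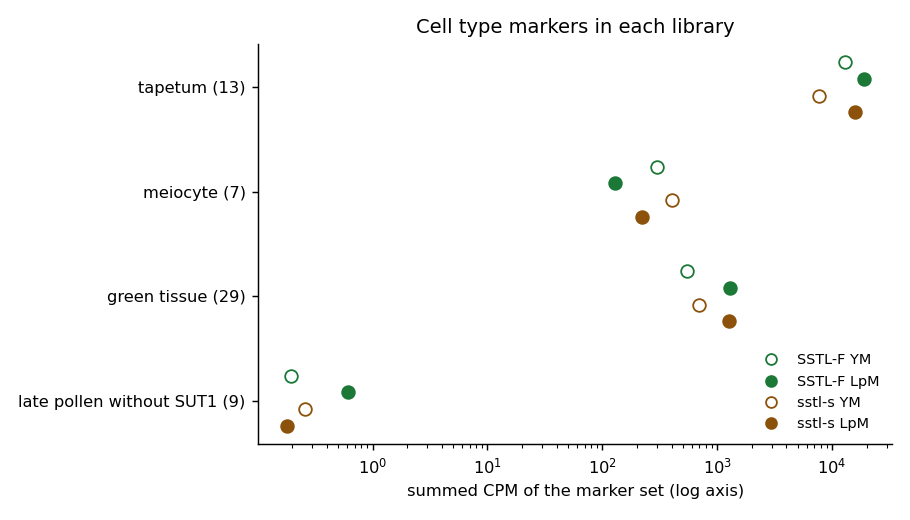
Summed CPM (log axis) of 4 sets of cell type markers in the 4 libraries, with open points for YM and filled points for LpM, and the number of genes in brackets. The tapetum set is the highest in every library, at 12996 CPM in *SSTL-F* YM and 18796 CPM in *SSTL-F* LpM, while the 9 late pollen markers other than *SUT1* sum to no more than 7 counts in a library.

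More genes rose than fell between YM and LpM. Among the 23577 genes, 2902 rose (12.3%) and 1032 fell (4.38%), and the median log2 fold-change was 0.01. At 4-fold or more, 998 genes (4.23%) were higher at LpM and 312 (1.32%) were lower. The whole counting interval lay past 2-fold for 1216 higher genes (5.16%) and 463 lower genes (1.96%). There were 152 genes with 0 counts at YM and 26 with 0 counts at LpM. Among the 6953 genes that carry a name in the tables, the source of the word lists below, 15.1% rose and 4.88% fell. The counts given for the word lists are to be read against these shares. The risers lay mostly among low and short genes. In the lowest quintile of genes by mean CPM 29.1% rose and 8.18% fell, against 3.80% and 2.57% in the highest quintile. In the quintile with the shortest gene models 21.4% rose, and in that with the longest 4.45% rose, while the share that fell ran between 3.41% and 5.30% over the 5 length classes. The part of length and level in the result was not tested.

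**Figure D2:**
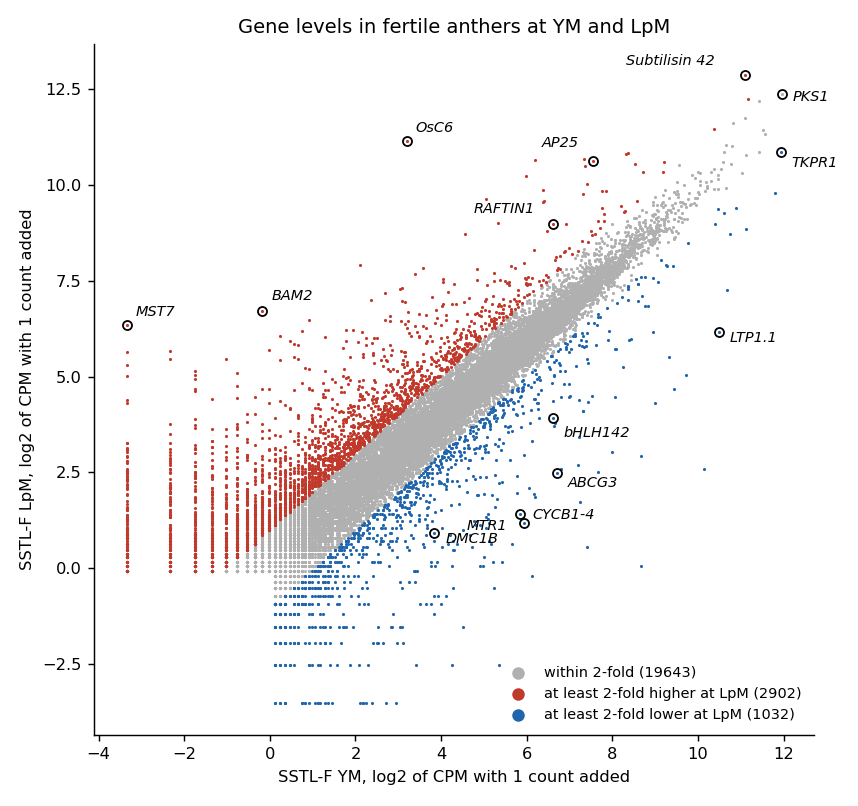
Level of each of the 23577 genes in *SSTL-F* YM (x axis) and *SSTL-F* LpM (y axis), as log2 of CPM with 1 count added, coloured by whether the gene rose (2902), fell (1032) or stayed within 2-fold. *OsC6*, *MST7* and *BAM2* stand far above the diagonal, and *LTP1.1*, *ABCG3*, *MTR1* and *CYCB1-4* far below it.

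Most of the tapetum regulators stayed within 2-fold. Of 10 genes on the list, 1 rose, 1 fell and 8 stayed within 2-fold, with a median log2 fold-change of -0.17. Over all kept genes 12.3% rose and 4.38% fell, and nothing is read from the counts of this list. *bHLH142* (Os01g0293100), the partner of TDR, fell from 994 counts to 172, with -2.70 (-2.95 to -2.48) on the log2 scale. *EAT1* (Os04g0599300), the factor that promotes tapetal cell death, rose from 1742 to 4237 counts and was 2.14-fold higher (2.03 to 2.27). *TDR* (Os02g0120500) lay between them at 7186 and 4645 counts, a value of -0.81 (-0.86 to -0.76). Thus the early and the late member of the bHLH series went opposite ways, and the middle one was lower without reaching 2-fold. *GAMYB* had 1544 and 1803 counts (0.04), the PHD-finger gene *PTC1* 119 and 139 counts (0.04), and the bZIP gene *TGA10* 365 and 370 counts (-0.16). *UDT1*, needed for early tapetum development, had 42 counts in both libraries. The receptor kinase gene *MSP1* and its ligand gene *TDL1A*, which set the number of sporocytes, had -0.07 and -0.36, the latter on 15 and 13 counts. *MYB80* was at -0.61 (-0.79 to -0.43).

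The tapetal proteases were among the clearest risers. *AP25* (Os03g0186900) went from 1890 to 18125 counts, 8.46-fold higher (8.07 to 8.87). The cysteine protease gene *CP1* went from 31 to 278 counts, 7.91-fold higher (5.45 to 11.9). *AP37* (Os04g0448500), the other aspartic protease gene, had 1272 and 2234 counts and stayed within 2-fold at 1.55-fold higher (1.45 to 1.66). So 2 of the 3 proteases rose, *AP37* being the exception. Subtilisins, a family of serine proteases, had 13 of 37 kept members that rose and none that fell, with a median of 0.31. Some risers, such as subtilisin 17 (5 and 15 counts), were kept only by their LpM counts, and the filter favoured their rise. Of all named genes 15.1% rose and 4.88% fell. Subtilisin 42 took more reads than any other gene at LpM, with 22394 counts at YM and 85769 at LpM (1.76). Subtilisin 46 had 1 count at YM and 505 at LpM, a ratio of 445 with an interval of 79.6 to 17624. Subtilisin 12 rose from 237 to 4878 counts (4.18), whereas subtilisin 19 had 4820 and 4369 counts (-0.32). The summed share of the subtilisins in all counts was 0.424% at YM and 1.01% at LpM.

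Genes of sporopollenin synthesis stayed among the most abundant genes at both stages, and the largest changes were in genes of transport and deposition. The 16 genes of the list held 2.29% of all counts at YM and 2.80% at LpM. Of them 3 rose, 3 fell and 10 stayed within 2-fold, and the median was 0.09. Over all kept genes 12.3% rose and 4.38% fell. Among the synthesis enzymes, the polyketide synthase gene *PKS1* (Os10g0484800) had 40319 and 61545 counts (0.43). The acyl-CoA synthetase gene *ACOS12* (Os04g0310800) had 22414 and 39669 counts (0.64), and the fatty acid omega-hydroxylase gene *CYP704B2* (Os03g0168600) 27834 and 53668 counts (0.77). All of these were higher at LpM by less than 2-fold. The fatty acyl-ACP reductase gene *DPW* (Os03g0167600) rose from 13513 to 32623 counts, 2.13-fold (2.09 to 2.17).

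Other enzymes of the same pathway were lower at LpM, by at least 2-fold in 1 case. *TKPR1* (Os09g0493500), the reductase that acts on the polyketide product, fell from 39784 to 21398 counts, and was 2.11-fold lower (2.07 to 2.14). *PKS2* (Os07g0411300) had 21133 and 14767 counts (-0.70), and *NP1* (Os10g0524500), an oxidoreductase of orbicule and exine formation, 14296 and 11038 counts (-0.55). *CYP703A3* (Os08g0131100), the in-chain hydroxylase, was nearly level at 30894 and 29630 counts (-0.24). On the per-length scale of the deposited TPM column, *PKS1* was the gene with the second highest level at both stages (4702 and 6076 TPM). *CYP703A3* moved from rank 7 to rank 15 and *CYP704B2* from rank 11 to rank 4.

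Transport and deposition genes showed the widest range. *OsC6* (Os11g0582500), the lipid transfer protein that carries lipid from the tapetum to orbicules and exine, had 92 counts at YM and 26113 at LpM, which is 9.05 and 2266 CPM. It was 250-fold higher (204 to 311), and its rank by TPM moved from 10499 to 5. *RAFTIN1* (Os08g0496800), named after the wheat protein that anchors sporopollenin to orbicules, rose from 989 to 5828 counts (2.38). Against these, the transporter gene *ABCG3* (Os01g0836600), which rice needs for the pollen wall, fell from 1053 to 64 counts and was 18.7-fold lower (14.5 to 24.4). The lipid exporter gene *ABCG26* (Os10g0494300) fell from 5479 to 2038 counts (-1.61), while its relative *ABCG15* (Os06g0607700) had 7453 and 12576 counts (0.57). *WDA1*, a wax gene of the anther epidermis, was at 0.66, the exine patterning gene *DEX1* at -0.51 and the acyltransferase gene *GPAT3* at -0.29 on 64 and 59 counts. Outside the list and chosen after the values were seen, anther specific protein 4 rose from 1635 to 18752 counts (3.34), and *DEFECTIVE POLLEN WALL 2* fell from 258 to 81 counts (-1.84). The gene named *RICE TAPETUM SPECIFIC GENE* was at 0 counts in both *SSTL-F* libraries.

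**Figure D3:**
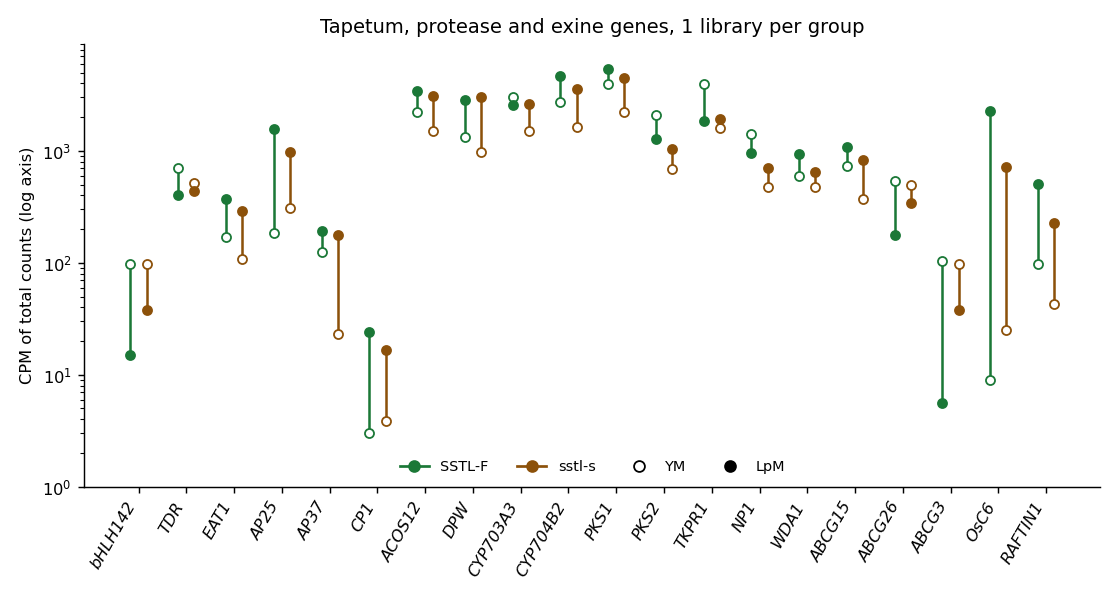
CPM (log axis) of 20 tapetum, protease and exine genes at YM (open points) and LpM (filled points), in *SSTL-F* (green) and *sstl-s* (brown), with 1 library per point. In *SSTL-F*, *OsC6* goes from 9.05 to 2266 CPM and *ABCG3* from 104 to 5.55 CPM, while *CYP703A3* stays at 3040 and 2571 CPM.

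All 14 meiosis genes were lower at LpM, and 9 of them fell, with a median of -1.13. The share of all kept genes that fell was 4.38%. *ZEP1*, of the synaptonemal complex, fell from 294 to 42 counts and was 7.94-fold lower (5.73 to 11.2). The strand exchange gene *DMC1B* fell from 145 to 21 counts (-2.91, with an interval of -3.70 to -2.30). The axis genes *PAIR2* and *PAIR3* went from 1588 to 809 counts (-1.15) and from 209 to 55 counts (-2.09). The germ cell Argonaute gene *MEL1* had 756 and 466 counts (-0.88), the cohesin gene *REC8* 116 and 95 counts (-0.47) and the crossover gene *HEI10* 153 and 112 counts (-0.63), all within 2-fold. The whole counting interval lay past 2-fold for 5 of the 14. On log2(RPKM + 1), 4 of the 9 no longer reached 2-fold, with *PAIR1* at -0.79, *DMC1A* at -0.58, *MER3* at -0.92 and *COM1* at -0.67. *GSL5* (Os06g0182300), the callose synthase of pollen mother cells and microspores, fell from 197 to 18 counts, 12.4-fold (7.65 to 21.4). *MICROSPORE AND TAPETUM REGULATOR1* (*MTR1*), which encodes a fasciclin protein secreted by the male germ line, fell from 625 to 25 counts and was 28.3-fold lower (19.0 to 44.1).

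Most of the cell cycle list stayed within 2-fold. Of 50 kept cyclins and cyclin-dependent kinases, 6 fell, 2 rose and 42 stayed within 2-fold, with a median of -0.17. Among all named genes 4.88% fell and 15.1% rose. The 6 that fell were A- and B-type cyclins. *CYCLIN-B1-4* fell from 582 to 30 counts (-4.41), *CYCLIN-A2-1* from 389 to 108 (-2.02) and *CYCLIN-B1-2* from 691 to 201 (-1.96). *CYCLIN-B2-2*, *CYCLIN-A1-1* and *CYCLIN-B1-1* were at -1.40, -1.34 and -1.10. The risers were *CYCLIN-U1-1*, with 1 and 48 counts, and a gene named D-type cyclin-interacting protein, with 145 and 488 counts. Apart from *CYCLIN-B1-4*, these members were chosen after their values were seen. None of the 5 histones on the list or of the 12 tubulins and kinesins fell, and their medians were -0.39 and -0.14. One of the latter rose, *BETA TUBULIN 8*, with 92 and 390 counts (1.89), chosen after its values were seen.

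Sugar transporters, which move hexoses and sucrose across membranes, held many risers. Of 23 kept sugar transporters 13 rose and none fell, with a median of 1.31, and 8 of the 13 had the whole interval past 2-fold. Among all named genes 15.1% rose, and 5.16% of all kept genes had the whole interval past 2-fold higher. Many of the risers had fewer than 10 counts at YM, as with *SWEET5* (4 and 39) and monosaccharide transporter 4 (8 and 24). Such genes were kept only by their LpM counts, so the filter favoured a rise. The count and the median carry that limit. The risers with at least 10 counts at both stages were *SUCROSE TRANSPORTER 5*, *SWEET7A*, *SWEET7D*, *SWEET13* and *SWEET15*. Monosaccharide transporter 7 (*MST7*) had 0 counts at YM and 931 at LpM, at least 274-fold higher against a floor of 3 counts in the YM library. *SWEET6B* had 1 and 156 counts, a ratio of 138 with an interval of 24.3 to 5468. *SUCROSE TRANSPORTER 5*, chosen after its values were seen, rose from 45 to 523 counts (3.33). The abundant carriers were nearly level, with tonoplast monosaccharide transporter 1 at 2450 and 3487 counts (0.33) and *SWEET1A* at 1646 and 1364 counts (-0.45).

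Genes of sucrose, hexose and starch metabolism differed one from another. Sucrose synthase 2 rose from 23435 to 56274 counts (1.08), and beta-amylase 2 (*BAM2*), of a family that breaks down starch, from 8 to 1211 counts, which was 133-fold (67.5 to 310). The vacuolar invertase gene *INV2* had 735 and 1600 counts, a log2 fold-change of 0.94 (0.81 to 1.07) that stopped short of 2-fold. The cell wall invertase gene *CIN3* had 5 counts in both libraries. *HXK10*, the hexokinase gene needed for pollen germination, had 12 counts at YM and 1 at LpM, a ratio of 13.6 with an interval of 2.01 to 582, but reached only -0.60 on log2(RPKM + 1). By contrast *HXK5* had 1029 and 1137 counts (-0.04). Of 5 starch genes looked at, the 4 that were kept stayed within 2-fold. The ADP-glucose pyrophosphorylase genes *AGPS1* and *AGPL4* were at 0.21 and 0.13, the plastidic phosphoglucomutase gene *PGM* at 0.06 and the translocator gene *GPT1* at -0.24. The granule-bound starch synthase gene *GBSSI*, with 2 and 0 counts, was under the count minimum. *CSA*, the MYB gene that controls sugar partitioning to the anther, had 339 and 364 counts (-0.08).

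Among the wider gene families, the photosynthesis list had the largest share of risers, and no ribosomal protein gene moved by 2-fold. In photosynthesis, 20 of 27 kept genes rose and none fell, with a median of 1.40, while 15.1% of all named genes rose. Chlorophyll a/b binding protein 2R rose from 330 to 1437 counts (1.94) and photosystem II subunit 1 from 354 to 1113 counts (1.47), whereas Rubisco small subunit 1, chosen after its values were seen, had 295 and 339 counts (0.02). These are the genes of the green tissue marker set. The 158 gene models that the tables list after chromosome 12 had 2900 counts at YM and 6581 at LpM, and 50 of the 91 kept ones rose. Of 44 lipid transfer proteins 23 rose and 3 fell, with a median of 1.19. Some risers, such as non-specific lipid transfer protein 1.20 (0 and 36 counts), were kept only by their LpM counts. Type C lipid transfer protein 2, with the most counts of the list at LpM, had 4453 and 7216 counts (0.51). The members with the most counts at YM went the other way. Non-specific lipid transfer protein 1.1 (*LTP1.1*) fell from 14585 to 831 counts and was 19.9-fold lower (18.6 to 21.4), and non-specific lipid transfer protein 2.2 fell from 17617 to 4844 counts, 4.12-fold (3.99 to 4.26). The summed share of the members found by name dropped from 0.523% to 0.346% of all counts although most of them rose. *OsC6*, named anther specific protein 6, is a lipid transfer protein outside this word list. Its own share went from 0.000905% to 0.227%, so the drop does not hold for lipid transfer proteins as a whole.

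Families of the cell wall had different shares of risers, while 15.1% of all named genes rose and 4.88% fell. Arabinogalactan proteins had 16 risers and 2 that fell among 38 (median 0.80), with arabinogalactan protein 5 going from 289 to 2136 counts (2.70). Class III peroxidases had 21 risers and 4 that fell among 53 (median 0.85). Peroxidase 39 rose from 639 to 1977 counts (1.45), while peroxidase 118, the most abundant at YM, fell from 2073 to 1143 (-1.04). Of 18 pectin enzymes 6 rose and none fell (median 0.47). Pectin methylesterase 26 rose from 57 to 738 counts (3.49), and pectin methylesterase 20 had 2582 and 1486 counts (-0.98). GDSL esterases and lipases had 23 risers and 5 that fell among 69 (median 0.49). GDSL 68 had 0 and 573 counts, at least 168-fold higher, and GDSL 96 rose from 3774 to 17378 counts (2.02). Expansins were level, with 1 riser and 1 that fell among 15 (median 0.19), and so were cellulose and callose synthases, with 3 risers and 1 that fell among 34 (median 0.05).

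Phenylpropanoid and flavonoid genes had 18 risers and 6 that fell among 49 kept members, with a median of 0.45. The shares over all named genes were 15.1% and 4.88%. Phenylalanine ammonia-lyase 1, at the entry of the pathway, had 9397 and 14107 counts (0.40). Chalcone synthase, the first enzyme of the flavonoid branch, rose from 106 to 2356 counts (4.28), and was chosen after its values were seen. Cytochrome P450s had 6 risers and 4 that fell among 31 (median 0.25), and fatty acid genes 3 and 2 among 23 (median 0.34). Acetyl-CoA carboxylase 1, which makes malonyl-CoA for fatty acids and polyketides, fell from 36446 to 10256 counts and was 4.03-fold lower (3.94 to 4.12). The gene named *BETA KETOACYL REDUCTASE*, chosen after its values were seen, rose from 644 to 13979 counts (4.26), against the fall of the carboxylase.

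Aquaporins had 4 risers and 1 that fell among 22 (median 0.36). *NOD26 LIKE INTRINSIC PROTEIN 4;1* stood out with 337 counts at YM and 9225 at LpM, 24.1-fold higher (21.7 to 27.0), while plasma membrane intrinsic protein 1A had 9930 and 13413 counts (0.25). ABC transporters had 7 risers and 6 that fell among 59 (median -0.08). Calcium signalling genes had 15 and 3 among 84 (median 0.10), and F-box and SKP1-like proteins 84 and 42 among 462 (median 0.07). The shares of risers among aquaporins, calcium signalling and F-box genes were near the 15.1% of all named genes, and nothing is read from them. Late embryogenesis abundant and dehydrin genes had 2 risers and 2 that fell among 10 (median 0.22), actin genes 2 risers among 23 (median 0.04), and neither of the 2 proton pump genes moved by 2-fold. Heat shock proteins ran against the main direction, with 8 that fell and 1 that rose among 33 (median -0.25). The share of all named genes that fell was 4.88%. *HEAT SHOCK PROTEIN 82A* fell from 5006 to 2211 counts and was 2.57-fold lower (2.44 to 2.70), while heat shock protein 70, the most abundant, had 22686 and 20204 counts (-0.35). All 30 ribosomal protein genes stayed within 2-fold (median -0.17).

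**Figure D4:**
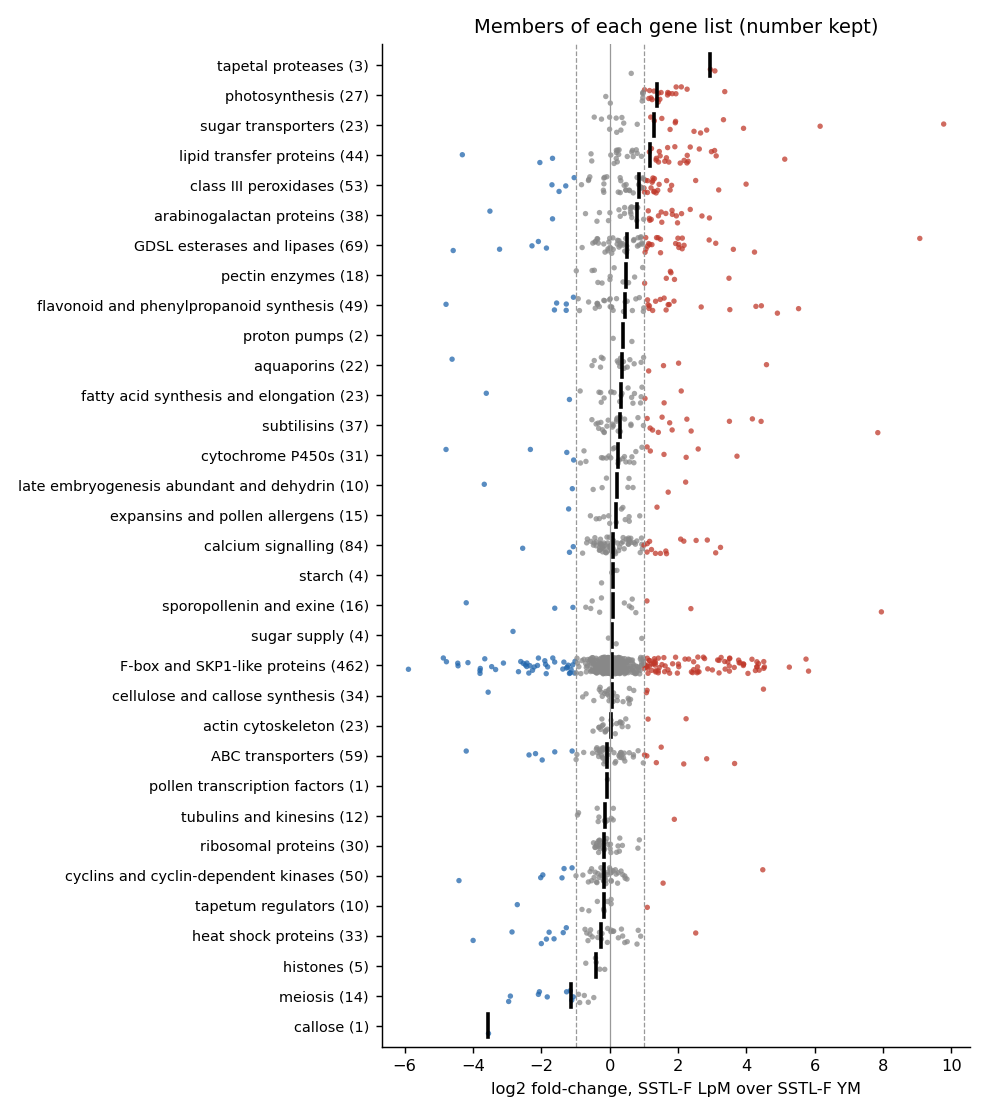
Log2 fold-change of each kept member (points) of the 33 gene lists in *SSTL-F*, LpM over YM, with the median of each list as a black bar and dashed lines at 2-fold. Photosynthesis and sugar transporters have medians of 1.40 and 1.31, meiosis has -1.13 with all 14 members below 0, and the ribosomal protein members all lie inside the 2-fold lines.

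Among named genes that reached 100 counts at either stage, the largest rises after *MST7*, GDSL 68, *OsC6* and subtilisin 46 were in genes of different kinds. Purple acid phosphatase 27C had 2 counts at YM and 382 at LpM, beta-galactosidase 5 had 2 and 292, and glutamate dehydrogenase 3 had 2 and 405. The ratios were 168 (46.3 to 1396), 129 (35.3 to 1068) and 179 (49.1 to 1480). *HIGH-AFFINITY POTASSIUM(K+) TRANSPORTER 6* had 2 and 282 counts, wall-associated kinase 87 had 5 and 390, and the gene named rice microspore-preferred 2 had 0 and 230, at least 67.6-fold higher. All of these were nearly absent at YM, where none exceeded 5 counts.

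The largest falls included several genes given above. *NAC DOMAIN-CONTAINING PROTEIN 118*, of a transcription factor family, fell from 513 to 17 counts (-5.01), and zinc finger CCCH protein 47 from 382 to 7 counts (-5.75). Protein phosphatase 2C42 fell from 1488 to 74 counts and was 22.8-fold lower (18.0 to 29.2), and class-1 histone deacetylase 3, which removes acetyl groups from histones, from 193 to 11 counts (-4.19). Protein transporter 3 (377 and 12 counts), GDSL 16 (127 and 5), F-box protein 384 (115 and 5) and Os_F0659 (107 and 1) complete the set of 12. Of 2 genes chosen after their values were seen, the NADPH oxidase gene *RESPIRATORY BURST OXIDASE HOMOLOG F* fell from 1512 to 122 counts (-3.80), and the metal transporter gene *YELLOW STRIP-LIKE GENE 11* rose from 16 to 844 counts (5.46). Genes known only by ID also moved far. Os01g0579000 fell from 4113 to 11 counts (-8.60) and Os08g0545800 from 11557 to 69 (-7.55), while Os10g0514901 had 0 and 457 counts, at least 134-fold higher. These 3 were chosen after their values were seen.

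The most abundant genes of each stage overlapped in part. Among the 8 genes with the most counts, *PKS1*, *CYP704B2*, *TWISTED DWARF 1* and sucrose synthase 2 were in the set at both stages. At YM *TKPR1*, acetyl-CoA carboxylase 1, *CYP703A3* and Os08g0515900 completed it, and at LpM subtilisin 42, *ACOS12*, *METALLOTHIONEIN2B* and *DPW*. *TWISTED DWARF 1* had 29917 and 31707 counts (-0.10). On the TPM scale *METALLOTHIONEIN2B*, of a family of metal-binding proteins, was the gene with the highest level at LpM (7656 TPM, from 4614 at YM), and non-specific lipid transfer protein 2.2 held that place at YM (6113 TPM) and came down to 1423 TPM.

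The change in fertile anthers was set beside that in sterile anthers, whose libraries are separate. In *sstl-s* 1482 of 23810 kept genes rose (6.22%) and 1193 fell (5.01%). Across the 22844 genes kept in both genotypes, the stage changes had a Pearson r of 0.60, given as a description, since genes are not replicates and both contrasts compare the same stages. Of the 2459 genes that rose in *SSTL-F*, 931 also rose in *sstl-s* (37.9%), and these were 66.9% of the 1391 that rose in *sstl-s*. Of the 976 that fell in *SSTL-F*, 340 also fell in *sstl-s* (34.8%), and these were 38.8% of the 876 that fell there. The median change in *sstl-s* was 0.71 for the genes that rose in *SSTL-F*, where it was 1.53. Chosen the other way round, the genes that rose in *sstl-s* had a median of 1.47 there and of 1.50 in *SSTL-F*. Those that fell in *sstl-s* had medians of -1.32 there and -0.49 in *SSTL-F*. Without replicates the difference between the genotypes was not tested.

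The levels in the sterile libraries were set beside those of the genes that moved far in *SSTL-F*. Of 753 genes at least 4-fold higher at LpM in *SSTL-F*, the *sstl-s* LpM level was between the 2 *SSTL-F* levels in 652 (86.6%), and of 297 at least 4-fold lower, in 273 (91.9%). The *sstl-s* YM level was between them in 562 (74.6%) and 155 (52.2%). The median levels of the first set were 0.689 and 7.38 CPM in *SSTL-F* and 1.47 and 3.88 CPM in *sstl-s*. These genes were chosen as extremes of the *SSTL-F* libraries, which largely fixes that other libraries lie between, and nothing is read from it. Among the listed genes, *OsC6* had 288 and 7950 counts in *sstl-s* (4.84 against 7.95 in *SSTL-F*), *AP25* 3568 and 10780 counts (1.66 against 3.08), *bHLH142* 1129 and 416 counts (-1.38 against -2.70) and *LTP1.1* 7479 and 6224 counts (-0.20 against -4.31). *AP37* did the reverse, with 268 and 1979 counts in *sstl-s* (2.94 against 0.63).

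List medians in the genotypes are given side by side, and their difference was not tested. In both genotypes they cover the members kept in *SSTL-F*. Members that passed the filter only in *sstl-s* were left out, as with non-specific lipid transfer protein d11 (3 and 97 counts there). That choice can make the *sstl-s* change look smaller. The median of the arabinogalactan proteins was 0.80 in *SSTL-F* against -0.06 in *sstl-s*, where 2 of them rose and 7 fell. Arabinogalactan protein 5 had 236 and 297 counts in *sstl-s* (0.39 against 2.70). Photosynthesis had medians of 1.40 and 0.68, lipid transfer proteins 1.19 and 0.31, and peroxidases 0.85 and 0.26. The sugar transporters (1.31 and 1.17) and meiosis genes (-1.13 and -0.96) were closer. The sporopollenin list had the larger median in *sstl-s*, 0.69 against 0.09, and 7 of its 16 genes rose there. The named genes whose stage change was furthest apart included *DnaJ domain protein A8*, which had 52 and 0 counts in *SSTL-F*, at least 19.7-fold lower, and 143 and 90 in *sstl-s*. A dehydration-responsive element-binding protein 1 gene had 2 and 171 counts in *SSTL-F* and 52 and 100 in *sstl-s*.

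**Figure D5:**
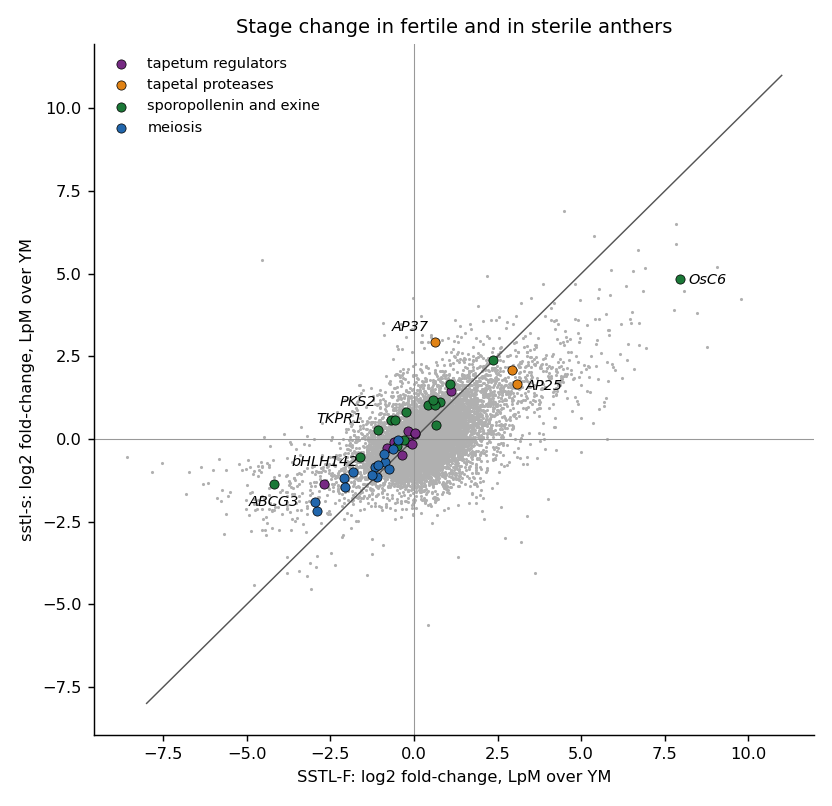
Log2 fold-change, LpM over YM, of each gene kept in both genotypes, in *SSTL-F* (x axis) and *sstl-s* (y axis), with 4 lists in colour and the line of equal change. Most listed genes lie on the same side of 0 in both, *OsC6* at 7.95 and 4.84, and *TKPR1* and *PKS2* lie below 0 in *SSTL-F* and above 0 in *sstl-s*.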

How the data were processed

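RNA from anthers was extracted with TRIzol and sequenced by the authors as single-end 90-base reads on a HiSeq 2000, with 1 library for each of 4 groups. CLC Genomics Workbench 11 was the authors' software, with RAP-DB as gene annotation; aligner settings, build and strand handling are not given in the sources used here. They deposited for each library the total count per gene, with RPKM and TPM columns and a CPM column that does not sum to the total such values should have and is treated as a score that was not used. Counts are the main measure, TPM ranks genes by level per length, and RPKM enters as an alternative.

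Counts were scaled to total counts with a prior count of 1, for genes with at least 10 counts in either library. With 1 library per group no test was run. For each gene, the 95% interval of the fold-change was taken from its LpM part of the reads of both libraries (exact Clopper-Pearson limits), and covers counting error only. The steps were checked on simulated data. There were 8 lists (60 genes) given by RAP-DB ID, of which 59 were matched by name and place between neighbouring IDs and 1 by ID, and 25 lists by words in gene names, some of which were corrected or added after the names were read. The members and lists were chosen with earlier results of these data known. Genes were named by rule: the 12 largest changes in each direction among named genes that reached 100 counts at either stage, the 8 most abundant genes of each library, all members of ID lists, up to 4 most abundant members of each word list, and 6 genes in each direction that differed most between genotypes; not all are printed. The alternatives were TMM factors (edgeR 4.0.16 in R 4.3.3), DESeq2 1.42.0 size factors, prior counts of 0.25 and 5, no filter or at least 50 counts, log2(RPKM + 1), a 4-fold line and the whole interval past 2-fold. Members of large families and overlapping genes may share reads. The scripts ran under Python 3.11.15; scipy 1.17.1 gave the intervals, pandas 2.3.3 and numpy 2.4.6 the tables, and matplotlib 3.10.9 drew the figures.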

Additional observations from a re-analysis of the deposited data

Results flagged for a closer look

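In 20 of the genes chosen by rule the stage change had opposite directions in the genotypes, with counting intervals on either side of 0. The difference was not tested, because each genotype has 1 library per stage. Among them, 4 are sporopollenin genes that were lower at LpM in *SSTL-F* and higher in *sstl-s*. *TKPR1* was at -1.08 in *SSTL-F* and 0.27 in *sstl-s*, *CYP703A3* at -0.24 and 0.81, *PKS2* at -0.70 and 0.57, and *NP1* at -0.55 and 0.58. For each of these the *sstl-s* YM library had the lowest level of the 4, as with *PKS2* at 692 CPM against 1031 to 2080 CPM in the others. The translocator gene *GPT1* was at -0.24 in *SSTL-F* and 0.14 in *sstl-s*. *TREHALOSE-6-PHOSPHATE PHOSPHATASE 7* (spelled PHOSHPHATASE in the tables) was at 2.61 in *SSTL-F*, on 15 and 109 counts, and at -2.05 in *sstl-s*, on 457 and 105 counts. Among word lists, *ALPHA-EXPANSIN 7* (0.45 and -0.23), type C lipid transfer protein 2 (0.51 and -1.01), long-chain acyl-CoA synthetase 1 (0.29 and -0.15), Actin 2 (0.20 and -0.11), *TUBULIN ALPHA-3 CHAIN* (0.048 and -0.38), *BETA-TUBULIN 4* (0.11 and -0.07), *PLASMA MEMBRANE INTRINSIC PROTEIN 2;6* (0.32 and -0.13), F-box protein 72 (0.20 and -0.13) and SKP1-like protein 1 (0.24 and -0.18) were higher at LpM in *SSTL-F* and lower in *sstl-s*. The other way round were *ALPHA-EXPANSIN 4* (-0.30 and 0.18), *PECTIN METHYLESTERASE 20* (-0.98 and 0.39), beta-ketoacyl-[acyl carrier protein] synthase I (-0.16 and 0.16), subtilisin 19 (-0.32 and 0.18) and Os08g0515900 (-0.55 and 0.31), the last of these being one of the most abundant genes at YM. Among the 22844 genes kept in both genotypes, 737 had such intervals on opposite sides of 0, and 511 of these were higher at LpM in *SSTL-F*. The intervals leave out the choice of scaling. With TMM factors of 4 libraries in place of total counts, the *sstl-s* median of all genes moved from -0.06 to 0.0004. The smallest changes above, such as *BETA-TUBULIN 4* in *sstl-s* (-0.07), are of that size.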

How the results depend on the processing

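No paired analysis was possible because each group has 1 library, and for the same reason no library could be left out. TMM of 2 or of 4 libraries, DESeq2 size factors and prior counts of 0.25 or 5 kept the counts of genes within 1.5 times. Under the scalings the median of all genes in *SSTL-F* lay between -0.02 and 0.01. In *sstl-s* it was -0.06 with total counts, -0.02 with DESeq2 size factors and 0.0004 with TMM. The genes that rose in *SSTL-F* were 4430 without a filter, 1565 with at least 50 counts, 1364 with log2(RPKM + 1), 1216 with the whole interval past 2-fold and 998 at 4-fold. Those that fell were 2271, 623, 604, 463 and 312 in the same order. The genes at least 2-fold different between the stages in sstl-s were 5470 without a filter, 1232 with at least 50 counts and 1117 with log2(RPKM + 1). Under the scalings, prior counts, filters and RPKM, at the 2-fold line, the share of calls that were rises ran from 66.1% to 74.5%. List medians left the range of the reported one only under log2(RPKM + 1), with callose at -1.61, peroxidases at 0.39 and the median log2 fold change of F-box and SKP1-like proteins in SSTL-F at -0.00421, and without a filter, with pollen transcription factors at 0.44 on 2 genes. Medians of ABC transporters, F-box proteins, actin, cellulose synthesis, pollen transcription factors and sugar supply, all near 0, changed sign under some settings. Of 76 named genes past 2-fold, all kept their direction, and 69 (RPKM) to 76 (DESeq2) stayed past 2-fold. Depth limits genes near the filter most.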

Other observations

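Further families were listed by words after the data had been seen, and are read against the 15.1% of all named genes that rose and the 4.88% that fell. MYB and GAMYB proteins had 17 risers and 2 that fell among 45 kept genes, with a median of 0.63. *GAMYB-LIKE 2* rose from 38 to 856 counts (4.28) and *MYB10* from 168 to 2048 counts (3.42), while *GAMYB* itself was level. NAC proteins were split, with 13 risers and 13 that fell among 62 (median 0.13). *NAC DOMAIN-CONTAINING PROTEIN 119* fell from 109 to 10 counts (-3.49). MADS box genes had 5 risers and none that fell among 27, including *MADS BOX GENE 13*, from 202 to 676 counts (1.56). Glutathione S-transferases had 10 risers and 1 that fell among 30 (median 0.31). Of 6 kept metallothioneins 4 rose (median 1.20), and the class I chitinase gene rose from 3224 to 20673 counts (2.50).

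Hormone genes changed one by one. *GIBBERELLIN 20-OXIDASE 1*, of a family that makes gibberellin, rose from 201 to 818 counts (1.84), whereas *GIBBERELLIN 20-OXIDASE 3* fell from 160 to 81 counts (-1.15). *GIBBERELLIN 2-OXIDASE 9* fell from 280 to 91 counts (-1.79), and in *sstl-s* it had 155 and 264 counts (0.83). Among auxin genes, *AUXIN RESPONSE FACTOR 7A* rose from 254 to 1529 counts (2.40) and *AUXIN RESPONSE FACTOR 16_1* fell from 5745 to 3042 counts (-1.10). Jasmonate genes had 3 risers and none that fell among 19, with a median of 0.07.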
